A study of Mus musculus with 12 samples.

Results

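The DNAJ genes encode the HSP40 or J-domain proteins, the co-chaperones of the HSP70 family. They were taken as every gene whose symbol in the platform annotation begins with Dnaja, Dnajb or Dnajc and a number and which had a probe set naming it alone. This gave 41 genes of 22180 measured in the series: 3 of subfamily A, 12 of subfamily B and 26 of subfamily C. RNA came from aortic vessel tissue of 12 female mice of the outbred CD-1 stock, with 1 Affymetrix array per mouse. In one group, 6 mice received CM-695, an inhibitor of both the deacetylase HDAC6 and the phosphodiesterase PDE9, by intraperitoneal injection of 80 mg/kg at 2 h and again at 1 h before sacrifice. The other 6 mice received saline vehicle, recorded in the series design as a single administration, and whether both groups had equally many injections is unclear. All mice were perfused with buffered saline before the vessel was frozen; age and time of day of collection are not given in the labels used here.

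A J-domain protein binds an unfolded client, hands it to an HSP70 and, through its J domain, triggers the ATP hydrolysis that locks HSP70 onto the client. Subfamily A keeps a glycine- and phenylalanine-rich region and a zinc finger beside the J domain, subfamily B keeps the glycine-rich region only, and subfamily C shares nothing but the J domain and holds the most specialised members. In the heat shock response the transcription factor HSF1 raises Dnajb1 together with the stress-inducible HSP70 genes Hspa1a and Hspa1b, whereas the unfolded protein response of the endoplasmic reticulum (ER) raises Dnajb9, Dnajb11 and Dnajc3.

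Promoter stretches of 3 members and of Hspa1a are shown because they carry the recognition letters of those 2 responses. The 150 bases before an annotated start are from RefSeq on GRCm38.p6, 5′ to 3′ on the strand of the gene, with the matched letters in capitals. Where a gene had several starts, the first listed one with the motif before it was taken, so the match chose the start. The Dnajc25 stretch lies inside the annotated span of that gene (chr4:58994799-59025573), so its start is not the outermost one. Hspa1a (chr17:34972157-34972306, minus strand) holds only the short heat shock motif of 2 units, which 17.0% of all genes carry. It had no match to the longer motif of 3 units, so that search missed this stress-inducible gene. Dnajb6 (chr5:29735748-29735897, plus strand) holds the motif of 3 units. Dnajc3 (chr14:118937782-118937931, plus strand) holds an ER stress response element, and Dnajc25 (chr4:59003043-59003192, plus strand) the core of the unfolded protein response element.
Hspa1a: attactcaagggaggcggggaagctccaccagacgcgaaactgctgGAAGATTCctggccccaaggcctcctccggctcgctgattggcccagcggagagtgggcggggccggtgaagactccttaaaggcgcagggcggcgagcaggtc
Dnajb6: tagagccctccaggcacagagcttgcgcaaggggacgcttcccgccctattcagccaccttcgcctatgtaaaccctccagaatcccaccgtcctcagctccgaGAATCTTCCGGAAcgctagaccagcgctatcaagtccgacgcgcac
Dnajc3: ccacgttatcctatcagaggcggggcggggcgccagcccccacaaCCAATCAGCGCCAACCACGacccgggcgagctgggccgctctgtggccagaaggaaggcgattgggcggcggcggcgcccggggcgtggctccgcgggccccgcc
Dnajc25: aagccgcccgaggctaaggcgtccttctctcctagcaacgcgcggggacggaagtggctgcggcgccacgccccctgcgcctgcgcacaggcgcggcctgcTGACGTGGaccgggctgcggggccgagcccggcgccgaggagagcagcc

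All promoter windows of 300 bases (250 before to 50 after a start) were searched on both strands, and 33 of the 41 members had a window. Members given with no motif below, among them Dnajb1, Dnajb9 and Dnajb11, had either no window or no match. The heat shock element with 3 alternating units of GAA and TTC (GAA first or TTC first), 2 bases apart, was found in 1 member, Dnajb6, or 3.03% of members with a window, against 0.662% of 27025 genes. With 2 units, GAANNTTC or TTCNNGAA, which the longer motif contains, it was found in 6 members (18.2%), Dnaja4, Dnajb4, Dnajb6, Dnajc10, Dnajc27 and Dnajc5g, against 17.0% of all genes. The ER stress response element, CCAAT and CCACG with 9 bases between, was found in 1 member, Dnajc3, against 0.137% of all genes. The unfolded protein response core TGACGTGG was found in 1 member, Dnajc25, against 0.714% of all genes. A match describes the letters only and is not evidence of binding.

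No DNAJ gene passed the test between CM-695 and vehicle. The values are RMA log2 levels, and each of the 41345 probe sets was tested with limma, with Benjamini-Hochberg adjustment over all of them and a threshold of 0.05. Of the 41 members 0 were past it in either direction, against 0.0225% of all genes called higher and 0.144% called lower (0.167% in either direction, and 0.155% of all probe sets), and the smallest adjusted p was 0.349. At an unadjusted limma p under 0.05, 2 members were higher and 1 lower, against 4.96% and 4.14% of all genes (9.1% in either direction), so these counts lay near the background. The count of members higher was 1 without vehicle mouse 1, vehicle mouse 4 or CM-695 mouse 3. The count of members lower was 2 without vehicle mouse 1 and 0 without vehicle mouse 4, vehicle mouse 6, CM-695 mouse 3 or CM-695 mouse 6. In no member did all CM-695 mice lie above or all lie below the vehicle mice, a separation found above in 0.442% and below in 0.636% of all genes.

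The differences ran from -0.25 to 0.28 log2, with 25 above 0 and 16 below, and 3 exceeded 0.2 in size. The 95% confidence interval of every one of the 41 members, taken gene by gene, lay inside a 1.5-fold change in either direction, as did that of 84.1% of all genes. The median difference was -0.03 for subfamily A, 0.03 for B and 0.06 for C, beside 0.02 for all genes. Array values compress large changes, so these bounds hold for the measured scale.

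**Figure D1:**
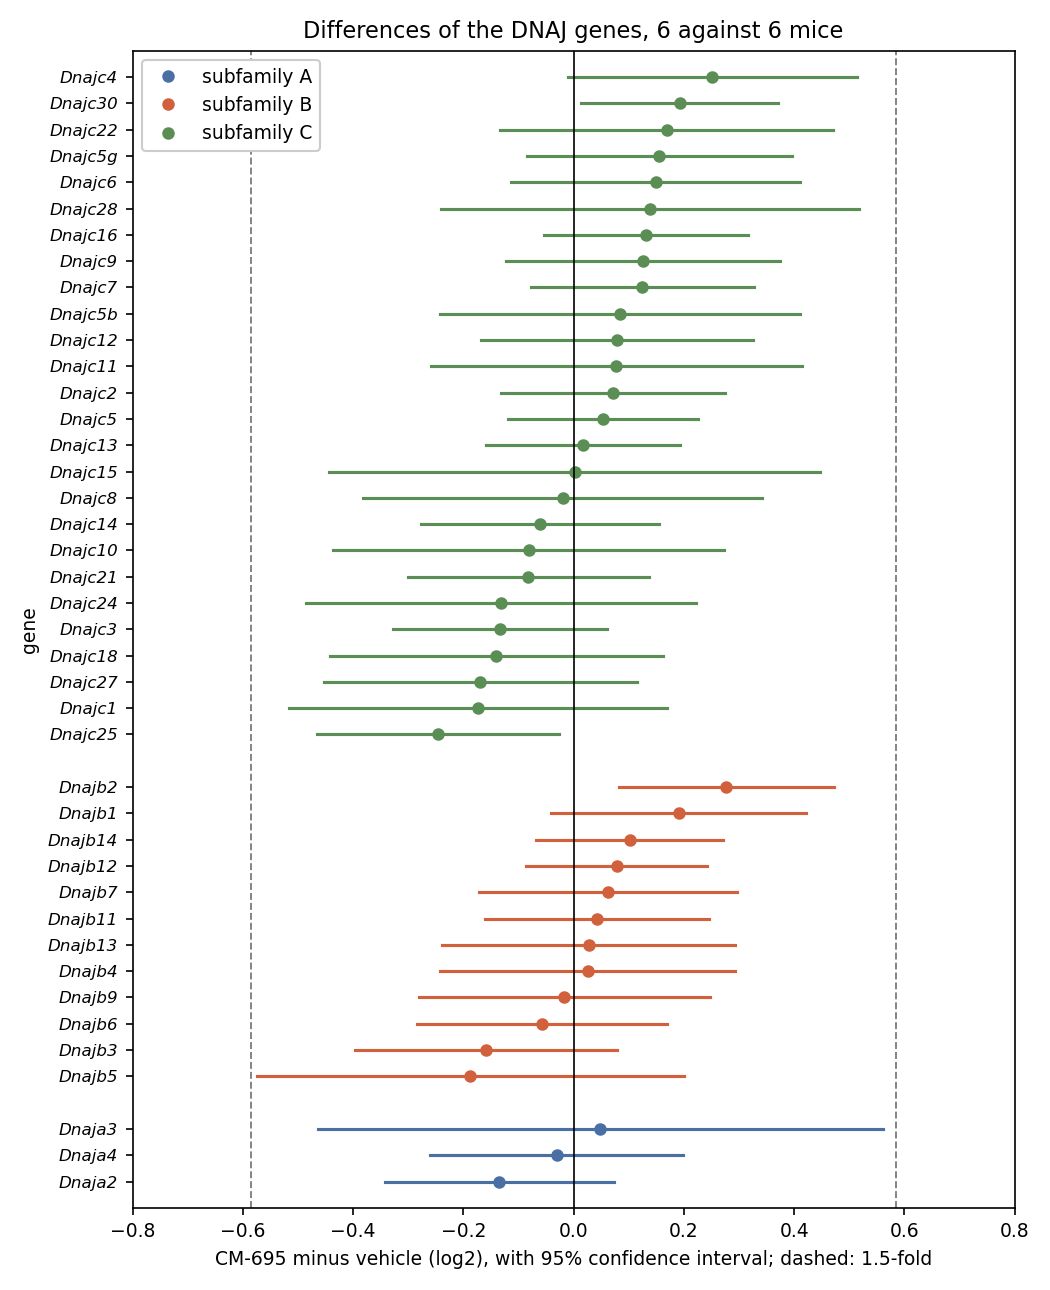
CM-695 minus vehicle on the log2 scale for each of the 41 DNAJ genes (rows, grouped by subfamily), with points for the limma difference and bars for its 95% confidence interval, 6 mice a group. All intervals lie between the dashed lines at a 1.5-fold change, and those of Dnajb2, Dnajc30 and Dnajc25 lie to 1 side of 0.

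Subfamily A holds the general-purpose cytosolic chaperones Dnaja2 and Dnaja4 and the mitochondrial Dnaja3. Dnaja2, which also serves HSP70 in refolding, had a lowest, median and highest value of 8.05, 8.23 and 8.52 in vehicle mice and 8.02, 8.10 and 8.33 in CM-695 mice. Its groups overlapped, with 3 of 6 treated mice below the lowest vehicle mouse (difference -0.13, SE 0.097, limma adjusted p = 0.715, exact permutation test p = 0.128), and without vehicle mouse 5 the difference was -0.08. Dnaja4 had vehicle values of 6.14, 6.27 and 6.36 and CM-695 values of 5.90, 6.23 and 6.59 (lowest, median, highest). The treated mice spread to both sides of the vehicle range. Its difference of -0.03 (SE 0.11) had an adjusted limma p of 0.957 and an exact permutation test p of 0.729, and with 1 mouse left out it ran from -0.10 (without CM-695 mouse 4) to 0.04 (without CM-695 mouse 1), so it has no settled direction. Dnaja3 spread more between mice than any other member, with a pooled SD of 0.46 within groups, and differed by 0.05 (SE 0.24). Dnaja1, the other cytosolic class A gene, shares its probe set with a microRNA and is not counted. That shared probe set differed by 0.36 (SE 0.12, limma adjusted p = 0.361), more than any member, and its signal cannot be assigned to 1 gene.

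In subfamily B the heat-inducible Dnajb1 showed no detectable rise. Its vehicle values were 6.06, 6.22 and 6.36 (lowest, median, highest) and its CM-695 values 6.19, 6.34 and 6.76. The groups overlapped, and CM-695 mouse 4 was highest. That mouse also stood apart in the mean of the neuronal and Schwann cell markers, at 6.41 against 4.90 to 5.66 in the other mice. This was not particular to Dnajb1, as the same mouse had the highest mean of the 12 in each subfamily (7.93 for A, 5.79 for B and 6.54 for C). Over the 12 mice Dnajb1 and that mean had r = 0.74 (permutation p = 0.0118, adjusted p = 0.189 over 410 relations of members with marker means) and rho = 0.36 (permutation p = 0.245, adjusted p = 0.631), and r was 0.38 without CM-695 mice 4 and 6. With the same marker mean r was 0.74 for Dnajb11, 0.66 for Dnaja4 and 0.59 for Dnajb9, but negative in other members, as in Dnajc27 (-0.47). After adjustment 0 of the 41 members passed 0.05 with these markers. The difference of Dnajb1 was 0.19 log2 (SE 0.11, 95% confidence interval -0.04 to 0.42), or 1.14-fold. Its limma adjusted p was 0.624, and its unadjusted p was 0.0801 in the exact two-sided permutation test over all 924 assignments of mice. Without CM-695 mouse 4 the difference was 0.12.

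Hspa1a, the stress-inducible HSP70 that Dnajb1 serves, did not pass the threshold either. It had a lowest, median and highest value of 3.91, 4.96 and 5.07 after vehicle and 5.77, 6.29 and 7.72 after CM-695, with a difference of 1.87 (SE 0.35, limma adjusted p = 0.0647), and all 6 treated mice lay above the vehicle mice. CM-695 mouse 4 was high in both genes (6.76 for Dnajb1, 7.64 for Hspa1a), while CM-695 mouse 2, at 7.72 the highest for Hspa1a, measured 6.38 for Dnajb1, close to the highest vehicle mouse.

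**Figure D2:**
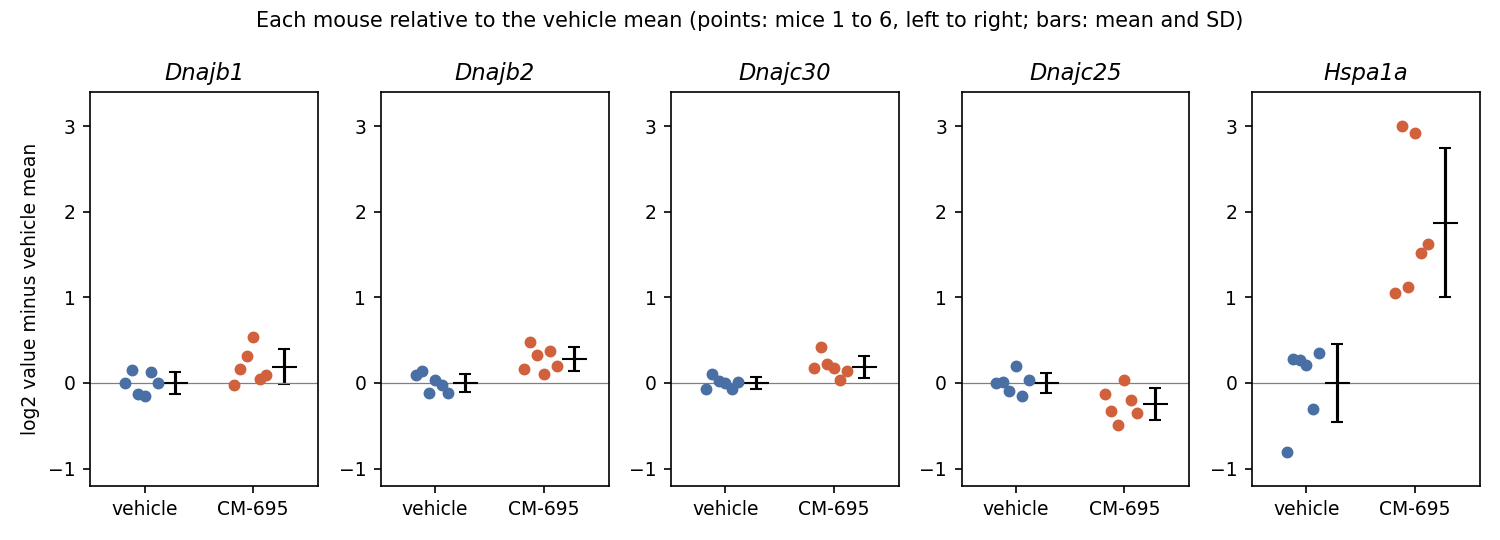
Log2 value of each mouse minus the vehicle mean (vertical axis) for Dnajb1, Dnajb2, Dnajc30, Dnajc25 and Hspa1a, with mice 1 to 6 from left to right in each group and bars for the mean and SD. The groups of the 4 DNAJ genes overlap, whereas the 6 CM-695 mice for Hspa1a lie above all vehicle mice.

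Dnajb2, a co-chaperone with ubiquitin-interacting motifs that passes clients to the proteasome, had the smallest p of the family. Vehicle mice measured 5.50, 5.63 and 5.77 (lowest, median, highest) and CM-695 mice 5.74, 5.89 and 6.11. Of the treated mice, 5 of 6 lay above the highest vehicle mouse. Its difference was 0.28 (SE 0.091, 95% confidence interval 0.08 to 0.47), or 1.21-fold (limma adjusted p = 0.349, and unadjusted p = 0.00433 in the exact permutation test, 1 of 41 such tests).

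The remaining cytosolic and nuclear members of subfamily B showed no detectable shift. Dnajb6, which suppresses protein aggregation and carries the heat shock element printed above, ran from 5.95 to 6.29 in vehicle mice and from 5.77 to 6.30 in CM-695 mice. Its difference was -0.06 (SE 0.10, 95% confidence interval -0.28 to 0.17). Dnajb4 differed by 0.03 (SE 0.12) and Dnajb5 by -0.19 (SE 0.18). Over the 7 measured cytosolic and nuclear genes of subfamilies A and B the median was -0.03, with 3 above 0 and 4 below, 0 past the threshold and 1 at an unadjusted p under 0.05.

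The members listed with the ER had a median of -0.06 over 11 measured genes, 4 above 0 and 7 below. Dnajb9, an ER-stress-inducible member that restrains the sensor IRE1, differed by -0.02 (SE 0.12). Dnajb11, which binds nascent ER clients, differed by 0.04 (SE 0.094), and the disulfide reductase gene Dnajc10 by -0.08 (SE 0.16). The ER HSP70 Hspa5 (BiP), the partner of Dnajb9, Dnajb11 and Dnajc10, differed by 0.02 (SE 0.095).

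Dnajc25, listed here with the ER members, was the member with the lowest difference. Vehicle mice measured 6.36, 6.52 and 6.71 (lowest, median, highest) and CM-695 mice 6.02, 6.25 and 6.55. The groups overlapped, with 4 of 6 treated mice below the lowest vehicle mouse. The difference was -0.25 (SE 0.10, 95% confidence interval -0.47 to -0.03), or 1.19-fold lower on the measured scale (limma adjusted p = 0.494, exact permutation test unadjusted p = 0.0260).

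Dnajc3, which encodes the ER co-chaperone P58IPK and carries the ER stress response element printed above, had vehicle values from 7.97 to 8.27 and CM-695 values from 7.88 to 8.21. Of the treated mice 3 of 6 lay below the lowest vehicle mouse, and the difference was -0.13 (SE 0.090, adjusted p = 0.692 by limma, exact permutation test p = 0.0996).

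Dnajc16 had vehicle values of 5.88, 6.04 and 6.21 and CM-695 values of 6.00, 6.18 and 6.33 (lowest, median, highest), so its groups overlapped with 2 of 6 treated mice above the vehicle range. It differed by 0.13 (SE 0.086, limma adjusted p = 0.682, exact permutation test p = 0.0779). The ER membrane gene Dnajb14 had vehicle values of 6.01, 6.21 and 6.33 and CM-695 values of 6.25, 6.31 and 6.34. Its treated mice lay close together near the top of the vehicle range (difference 0.10, SE 0.079, limma adjusted p = 0.737, exact permutation test p = 0.0563), and without vehicle mouse 2 the difference was 0.06. Dnajb12, Dnajc1, Dnajc14 and Dnajc18 completed the list, between -0.17 and 0.08. Among 9 measured genes that commonly rise with these members in ER stress, 0 passed the threshold. At an unadjusted limma p under 0.05, Creld2 (0.24, SE 0.095) and Manf (0.28, SE 0.12) were higher and Herpud1 (-0.64, SE 0.17) was lower, so the list held both directions. Over all genes 4.96% were higher and 4.14% lower at that level.

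The 6 measured members of the mitochondrial list lay between 0.00 and 0.25, with a median of 0.11 and 6 of 6 above 0, beside 55.3% of all genes. The 3 members in no role list also lay above 0. Dnajc30, a mitochondrial member linked to ATP synthase and complex I upkeep, measured 6.80, 6.88 and 6.98 after vehicle and 6.91, 7.05 and 7.30 after CM-695 (lowest, median, highest). Of the treated mice 5 of 6 lay above the highest vehicle mouse. The difference was 0.19 (SE 0.083, 95% confidence interval 0.01 to 0.37), or 1.14-fold (limma adjusted p = 0.511, exact permutation test unadjusted p = 0.00433). Dnajc4, whose place in this list is less certain, measured 7.80, 7.99 and 8.36 after vehicle and 8.08, 8.33 and 8.44 after CM-695. The groups overlapped, with 3 of 6 treated mice above the vehicle range (difference 0.25, SE 0.12, adjusted p = 0.559 by limma, exact permutation test p = 0.0649). Dnajc15 and Dnajc11, an inner membrane member and a partner of the cristae-organising MICOS complex, differed by 0.00 (SE 0.21) and 0.08 (SE 0.16), and Dnajc28 by 0.14 (SE 0.18).

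The other members of subfamily C serve single pathways, and 0 of them reached an unadjusted limma p under 0.05. The vesicle and endosome genes were Dnajc5, the cysteine string protein of exocytosis (0.05, SE 0.080), Dnajc6, the auxilin that uncoats clathrin vesicles (0.15, SE 0.12), Dnajc13 of endosomal sorting (0.02, SE 0.082) and the Rab-like Dnajc27. Dnajc27 measured 5.45, 5.76 and 6.20 after vehicle and 5.31, 5.62 and 5.87 after CM-695 (lowest, median, highest), 2 of 6 treated mice lying below the vehicle range (difference -0.17, SE 0.13, limma adjusted p = 0.737, exact permutation test p = 0.232). It differed by -0.08 without vehicle mouse 2 and by -0.11 without CM-695 mouse 4. The factors of RNA, histones and translation ran from -0.13 for Dnajc24, a diphthamide synthesis gene, to 0.13 for the histone chaperone gene Dnajc9. Between them lay Dnajc21, Dnajc8 and the ribosome-associated Dnajc2, at -0.08, -0.02 and 0.07. Dnajc7, whose TPR repeats bind both HSP70 and HSP90, measured 7.83, 7.99 and 8.10 after vehicle and 7.85, 8.13 and 8.30 after CM-695. Its groups overlapped with 4 of 6 treated mice above the vehicle range (difference 0.12, SE 0.094, limma adjusted p = 0.730, exact permutation test p = 0.141). Dnajc12 and Dnajc22 differed by 0.08 (SE 0.11) and 0.17 (SE 0.14).

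The 5 members known mainly from testis or cilia, Dnajb3, Dnajb7, Dnajb13, Dnajc5b and Dnajc5g, were also the 5 whose mean lay at or below the median probe set. At such levels low expression and background cannot be told apart. Dnajb3 measured 2.65, 2.77 and 3.18 after vehicle and 2.42, 2.71 and 2.86 after CM-695 (lowest, median, highest), with overlapping groups (difference -0.16, SE 0.11, limma adjusted p = 0.705, exact permutation test p = 0.160), and without vehicle mouse 3 the difference was -0.09. Dnajc5g measured 2.96, 3.22 and 3.46 after vehicle and 3.20, 3.34 and 3.70 after CM-695, also overlapping (difference 0.15, SE 0.11, limma adjusted p = 0.717, exact permutation test p = 0.180). It differed by 0.10 without vehicle mouse 1 and by 0.09 without CM-695 mouse 6. Dnajb7, Dnajb13 and Dnajc5b differed by 0.06, 0.03 and 0.08. The remaining 36 members lay above that median.

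The partners of the DNAJ proteins were described in the same way. Of 11 measured HSP70 genes 0 passed the threshold, 3 were higher at an unadjusted limma p under 0.05 and 0 lower, beside 4.96% and 4.14% of all genes. Their median was 0.21, beside 0.02 for all genes, and 6 of the 11 confidence intervals (54.5%) lay inside a 1.5-fold change, beside 84.1% of all genes. All CM-695 mice lay above all vehicle mice in 2 of the 11 and below in 0, beside 0.442% and 0.636% of all genes. The constitutive Hspa8, the main cytosolic partner of the DNAJ proteins, differed by 0.28 (SE 0.12). Set against the same 4.96%, the other partner lists also held genes at that level. Among 13 nucleotide exchange factors, which release the client from HSP70 after the DNAJ step, 0 passed and 2 were higher at an unadjusted limma p under 0.05: Hsph1 (0.97, SE 0.22) and Hspa4l (0.30, SE 0.084). Among 5 genes of the handover from HSP70 to HSP90, 0 passed and 2 were higher at that level, Stip1 (0.56, SE 0.13) and Hsp90aa1 (0.36, SE 0.11). All CM-695 mice lay above all vehicle mice in 1 exchange factor and 0 handover genes, and below in 0 of either list. Of 3 measured J-domain genes with other names, Sec63 (-0.17, SE 0.094), Hscb (0.22, SE 0.19) and Gak (-0.05, SE 0.077), 0 reached an unadjusted p under 0.05.

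**Figure D3:**
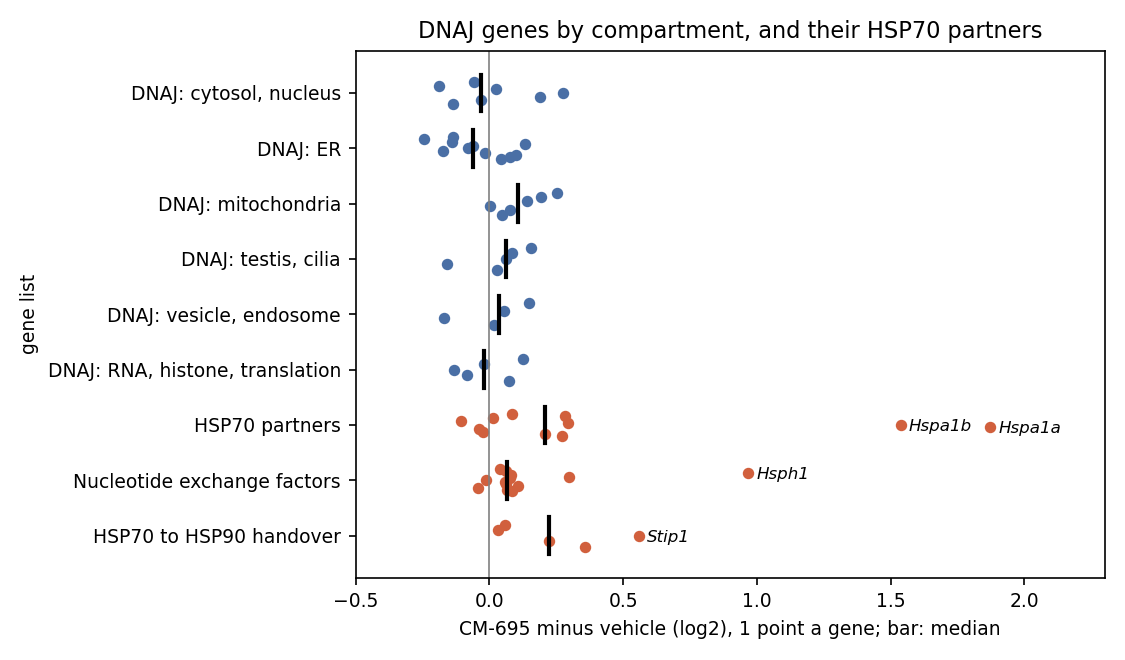
CM-695 minus vehicle (log2, horizontal axis) for each gene of 6 DNAJ lists (blue) and 3 lists of partner genes (orange), 1 point a gene, with bars for list medians. The DNAJ genes stay between -0.25 and 0.28, and only Hspa1a, Hspa1b, Hsph1 and Stip1 among the plotted genes exceed 0.5.

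The spread of several DNAJ genes between mice ran with markers of the cell types in the dissected vessel. The tissue held smooth muscle RNA, as the label implies (9 of 9 markers above the median probe set), and also RNA of adipocytes (9 of 9) and heart muscle (11 of 11). The mean of the smooth muscle markers ran from 8.72 to 10.7 in CM-695 mice and from 9.24 to 10.1 in vehicle mice. The adipocyte mean ran from 9.81 to 10.9 and from 10.3 to 10.7, and the heart muscle mean from 6.02 to 8.71 and from 7.53 to 9.61. Heart muscle markers had a median difference of -1.68, with 11 of 11 below 0 and 0 past the threshold. At an unadjusted limma p under 0.05, 10 of them were lower, beside 4.14% of all genes. CM-695 mouse 2 had the highest smooth muscle mean and the lowest adipocyte mean of all 12 mice. In bulk tissue, fewer cells of a type and less RNA per cell cannot be told apart.

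Each of the 41 members was correlated with each of 10 marker means over the 12 mice, after the pattern had been seen, and p-values from 100000 permutations were adjusted over these 410 relations. For Pearson's r, 11 relations in 9 members passed an adjusted p of 0.05, 5 with smooth muscle, 4 with adipocyte and 1 each with fibroblast and macrophage markers. All 11 had the same sign within the 6 CM-695 mice, within the 6 vehicle mice and without the 2 mice farthest from the marker median. They were picked for a high r over these same mice, so the shared sign is no independent check. Within vehicle mice the size of r fell as low as 0.50, for Dnajc11 with adipocyte markers. Genes outside the family were not correlated with the marker means, so the share of all genes that would pass is unknown. The 11 relations therefore cannot be read as particular to the DNAJ genes.

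Dnajb5, a cytosolic class B member, rose with the smooth muscle mean (r = 0.92, permutation p = 4e-05, adjusted p = 0.00820; rho = 0.92, permutation p = 0.00012, adjusted p = 0.0164). Within CM-695 mice r was 0.96, within vehicle mice 0.80, and without CM-695 mice 2 and 3 it was 0.85. Dnajb5 measured 7.05 in CM-695 mouse 2 and 6.00 in CM-695 mouse 3, the mice with the highest and lowest smooth muscle means. The ER member Dnajc18 showed the same sign (r = 0.89, permutation p = 0.00014, adjusted p = 0.0191; rho = 0.86, permutation p = 0.00054, adjusted p = 0.0553), as did Dnajc8 (r = 0.83, permutation p = 0.00087, adjusted p = 0.0381; rho = 0.72, permutation p = 0.01066, adjusted p = 0.185). Without CM-695 mice 2 and 3, r was 0.86 for Dnajc18 and 0.65 for Dnajc8.

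Dnajc28 ran the opposite way, falling as the smooth muscle mean rose (r = -0.93, permutation p = 4e-05, adjusted p = 0.00820; rho = -0.94, permutation p = 3e-05, adjusted p = 0.0123). It measured 6.23 in CM-695 mouse 3 and 5.43 in CM-695 mouse 2. Within CM-695 mice r was -0.98, within vehicle mice -0.95, and without CM-695 mice 2 and 3 it was -0.93. Dnaja3 had the same sign (r = -0.82, permutation p = 0.00093, adjusted p = 0.0381; rho = -0.69, permutation p = 0.0167, adjusted p = 0.225), with r = -0.70 without those mice.

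The mitochondrial members Dnajc15, Dnajc11 and Dnaja3 ran with the adipocyte mean. For Dnajc15, r was 0.91 (permutation p = 0.00031, adjusted p = 0.0253) and rho 0.83 (permutation p = 0.00144, adjusted p = 0.0656). For Dnajc11, r was 0.84 (permutation p = 0.00036, adjusted p = 0.0253) and rho 0.78 (permutation p = 0.00416, adjusted p = 0.127). For Dnaja3, r was 0.84 (permutation p = 0.00132, adjusted p = 0.0492) and rho 0.72 (permutation p = 0.01082, adjusted p = 0.185). Without CM-695 mouse 2 and vehicle mouse 4, r was 0.73, 0.71 and 0.61 in that order. The endosomal Dnajc13 ran with the adipocyte mean (r = 0.82, permutation p = 0.00052, adjusted p = 0.0297; rho = 0.83, permutation p = 0.00136, adjusted p = 0.0656) and with the macrophage mean (r = 0.85, permutation p = 0.00037, adjusted p = 0.0253; rho = 0.73, permutation p = 0.00864, adjusted p = 0.177), with r = 0.69 and 0.75 without the 2 farthest mice.

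Dnajc1, an ER member, ran with the fibroblast mean (r = 0.85, permutation p = 0.00058, adjusted p = 0.0297; rho = 0.91, permutation p = 0.00012, adjusted p = 0.0164), and r was 0.78 without vehicle mouse 3 and CM-695 mouse 3. The fibroblast markers had a median difference of -0.42, with 10 of 10 below 0 and 0 past the threshold, beside a difference of -0.17 for Dnajc1. At an unadjusted limma p under 0.05, 4 of them were lower, beside 4.14% of all genes. The part of these markers in the difference of Dnajc1 was not tested. The Pearson and Spearman tests both passed after adjustment for 3 relations, those of Dnajb5 and Dnajc28 with smooth muscle and of Dnajc1 with fibroblast markers.

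**Figure D4:**
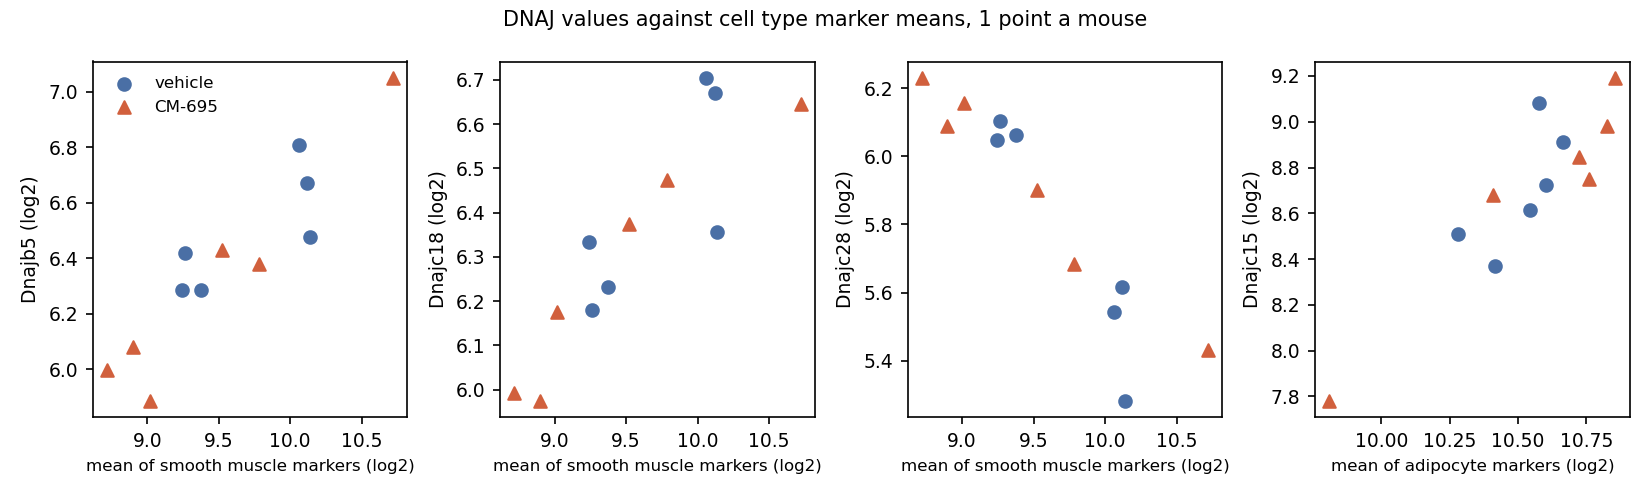
Log2 values of Dnajb5, Dnajc18 and Dnajc28 against the mean of the smooth muscle markers, and of Dnajc15 against the mean of the adipocyte markers, 1 point a mouse (circles vehicle, triangles CM-695). Mice of both groups follow the same course, with r = 0.92, 0.89, -0.93 and 0.91 in that order.

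With the heart muscle mean as a covariate, 0 members passed, with the limit that this mean itself lay lower after CM-695. Of the 14 genes given in full, the differences of 5 grew by over 1.5 times, to -0.38 for Dnajc25, -0.33 for Dnajb3, 0.23 for Dnajc16, -0.22 for Dnajc3 and 0.20 for Dnajc7. The differences of 3 shrank by over 1.5 times, to -0.035 for Dnaja2, -0.10 for Dnajc27 and -0.0026 for Dnaja4. Dnajb2 differed by 0.39, Dnajc4 by 0.37, Dnajb1 by 0.26 and Dnajc30 by 0.18. In most of these genes the adjusted p, which depends on all probe sets in the fit, did not fall. At an unadjusted limma p under 0.05, 2 members were higher and 2 lower with this covariate, against 2 and 1 without it. The limma adjusted p was 0.52 for Dnajb2, 0.621 for Dnajc25, 0.693 for Dnajc4, 0.786 for Dnajb1 and 0.813 for Dnajc30. Each was above its value without the covariate, while for Dnajb3 it was 0.686 against 0.705. With the smooth muscle mean as a covariate 0 members passed, Dnajc7 shrank to 0.08 and Dnajc4 differed by 0.18, while Dnajb2, Dnajc30, Dnajc25 and Dnajb1 differed by 0.30, 0.22, -0.24 and 0.19.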

How the data were processed

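RNA of 12 mice, 6 per group, was measured on 1 array each. The deposited values were log2 expression levels per probe set, which the authors made with RMA (background correction, normalization across arrays and summary of probes), per the submitters' processing notes; no label names its software or version. The 12 arrays had medians from 4.69 to 4.74 and correlated at 0.957 to 0.977, none being identical. The number of mice limits the precision.

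Of 41345 probe sets, 23521 named 1 gene, 1814 several and 16010 none; a RefSeq table matched 23328 by gene identifier and changed 0 symbols. Among probe sets naming a gene alone, that with the highest mean stood for it (2 members had several such probe sets). Some members also had probe sets shared with another gene, which were not used. Dnaja1, Dnajb8, Dnajc17 and Dnajc19 had only probe sets naming several genes and are not members.

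Tests used limma 3.58.1 in R 4.3.3 (lmFit, eBayes, two-sided) over all probe sets, checked on simulated data, and exact permutation tests. The members and lists were chosen with earlier results of these data known. The rule gave values in full for Dnaja1 (not a member here) and Dnajb1, for any member past the threshold or with separate groups, and for those of smallest p until 14 genes, at least 2 per subfamily, were named; other members follow their list. Alternatives covered a replicate block, a dim filter, scaling, weights, variance priors, probe set choice, marker covariates and leaving out mice. The marker correlations and the promoter search were added after values had been seen.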

Additional observations from a re-analysis of the deposited data

Results flagged for a closer look

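Across the 41 members and both groups, 82 sets of 6 values were checked for a single mouse far from the others, and 2 were found; chance gives about 1 in 20 such sets. Dnajc1 measured 6.03 in vehicle mouse 1, with the other vehicle mice between 6.66 and 6.95. Without that mouse its difference was -0.30 (SE 0.12, limma adjusted p = 0.469), against -0.17 (SE 0.16) with all mice. Vehicle mouse 1 also had the lowest fibroblast marker mean of its group, 8.74, and the part of cell content in that value was not tested beyond the correlation given for Dnajc1. Dnajc15 measured 7.78 in CM-695 mouse 2, with the other treated mice between 8.68 and 9.19. Without that mouse its difference was 0.19 (SE 0.14, limma adjusted p = 0.655), against 0.00 (SE 0.21). The adipocyte marker mean of CM-695 mouse 2 was 9.81, the lowest of the 12 mice.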

How the results depend on the processing

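Under 22 alternatives, 12 of them leaving out 1 mouse each, 0 DNAJ genes passed the threshold in either direction; the smallest adjusted p was 0.208, for Dnajb2 with dim probe sets left out, a filter that dropped 5 members. The count higher at an unadjusted limma p under 0.05, 2 with all mice, was 1 with a replicate block, 1 to 2 with 1 mouse left out, and 3 with repeated quantile normalization, with 1 probe set a gene and with the mean of all probe sets of a gene. The count lower, 1 with all mice, was 2 with the heart muscle covariate and 0 to 2 with 1 mouse left out. Same-numbered mice share only a number: their deviations correlated at -0.104 to 0.101, above 0.1 in 1 of 6 pairs, and 1 of 6 correlated best with its own number. Over the alternatives the medians ran from -0.11 to 0.03 for subfamily A, 0.03 to 0.07 for B and 0.02 to 0.09 for C. Of 14 genes followed, 13 kept their direction, though sizes moved by over 1.5 times for those given in the report; Dnaja4 ran from -0.10 to 0.04 with 1 mouse left out, and was 0.038 without CM-695 mouse 1. RMA values carry no detection calls, so the signal over background of dim members is unknown.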

Other observations

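Of the DNAJ genes, 4 were represented only by probe sets that also name another gene, so their signal cannot be assigned. The probe set naming Dnaja1 and Mir207 measured 6.50, 6.66 and 6.85 in vehicle mice and 6.80, 6.93 and 7.41 in CM-695 mice (lowest, median, highest), with 4 of 6 treated mice above the vehicle range. Its difference was 0.36 (SE 0.12, limma adjusted p = 0.361, exact permutation test unadjusted p = 0.00649). CM-695 mouse 4 was highest there, as it was for Dnajb1. The 5 probe sets naming Dnajb8, Dnajc17 or Dnajc19 with other genes differed by between -0.05 and 0.13.

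The 2 further probe sets of Dnaja3 were dim, with means of 4.47 and 4.27 against 8.46 for the one used, and differed by -0.18 and 0.09. The further probe set of Dnajb14, with a mean of 3.05, differed by 0.04. Probe sets naming Dnajc14, Dnajc8, Dnajc30, Dnajb6 or Dnajc7 together with another gene differed by 0.24, -0.16, 0.13, 0.14 and -0.0021 in that order. The probe sets used for these members differed by -0.06, -0.02, 0.19, -0.06 and 0.12. The sign was thus opposite for Dnajc14, Dnajb6 and Dnajc7, and the shared signal cannot be assigned to 1 gene.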
